A study of Homo sapiens with 6 samples.

Results

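The zinc finger gene clusters of human chromosome 19 were examined as 7 windows of the hg19 assembly, and every listed ChIP peak whose midpoint fell in a window was taken as a member. The windows run over 9.2-9.9 Mb (window 1), 11.7-12.6 Mb (window 2), 19.7-24.2 Mb (window 3), 36.6-38.3 Mb (window 4), 44.3-45.0 Mb (window 5), 52.3-54.0 Mb (window 6) and 56.6-58.9 Mb (window 7). They held 804 of the 3530 peaks listed on chromosome 19 and of the 84817 peaks listed in all, and the other 2726 peaks of the chromosome served for comparison. The peaks came from LNCaP cells, an androgen-responsive prostate cancer line, kept for 6 h with 1 µM BMH-21, a DNA-intercalating inhibitor of RNA polymerase I, or with its vehicle DMSO as control. Each treatment had 1 library for RNA polymerase I (Pol I) and 1 for RNA polymerase II carrying phosphate on serine 5 of the C-terminal repeat, the initiating form (Pol II below). The inputs were not analysed here. Because each group is 1 library, no test between groups was made and no spread between replicates can be given. Intervals are exact Clopper-Pearson 95% intervals over peaks. They cover counting error only, and neighbouring peaks are not independent.

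Chromosome 19 carries a large share of the KRAB zinc finger genes of the human genome. They encode DNA-binding repressors with arrays of C2H2 zinc fingers and a KRAB domain, which recruits the corepressor TRIM28 and with it the machinery that lays down histone H3 lysine 9 methylation. Many of these proteins bind and silence transposable elements. The clusters arose by repeated tandem duplication, and the bodies of the genes often carry heterochromatic marks themselves. In the RefSeq annotation of GRCh38.p14, 265 of 1451 protein-coding genes of the chromosome (18.3%) had a symbol made of ZNF, ZFP, ZSCAN, ZIM or ZIK and a number. Of these, 213 stood in 18 uninterrupted rows of at least 5 such genes, the longest being the 27 genes from ZNF737 to ZNF681. No annotation or sequence on hg19 was used, so that the label of the windows was not checked against genes, peaks are named by position and no peak is tied to a gene or a promoter.

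On chromosome 19, the lists held 69 BMH-21 Pol I peaks, 1200 DMSO Pol I peaks, 536 BMH-21 Pol II peaks and 1725 DMSO Pol II peaks. In the windows lay 21 BMH-21 Pol I, 269 DMSO Pol I, 164 BMH-21 Pol II and 350 DMSO Pol II peaks. The depth in reads is unknown. Peaks are numbered along the genome within a list, and many of these running numbers are missing from the lists, so absence from a list does not show absence of the polymerase. Within 0.1 Mb of a window edge, 1 BMH-21 Pol I, 34 DMSO Pol I, 16 BMH-21 Pol II and 55 DMSO Pol II peaks lay inside, against 2 BMH-21 Pol I, 24 DMSO Pol I, 15 BMH-21 Pol II and 48 DMSO Pol II peaks outside. The member nearest to an edge was the DMSO Pol I peak chr19:19702015-19702423 (score 85.53), and the nearest peak outside was the DMSO Pol II peak chr19:36598967-36599611 (score 113.96). The score is the authors' value per peak and is compared within a list only.

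For Pol II, the windows took a larger part of the chromosome's listed peaks after BMH-21 than in DMSO. The windows make up 22.5% of the 55.6 Mb between the outermost listed peaks, less the longest stretch in which no list has a peak (3.48 Mb). They held 30.6% (interval 26.7 to 34.7) of the listed Pol II peaks after BMH-21 and 20.3% (interval 18.4 to 22.3) of the DMSO Pol II peaks. The BMH-21 share was thus 1.36 times the share of the length (interval 1.19 to 1.54) and the DMSO share 0.902 times (interval 0.819 to 0.990). In density this came to 13.1 BMH-21 Pol II peaks per Mb in the windows against 8.64 in the rest of the chromosome, while DMSO Pol II had 28 per Mb in the windows against 31.9 in the rest. The DMSO value is not stable: it turned to 1.09 times the share of the length (interval 0.976 to 1.21) without window 3, and its interval stayed below 1 in 8 of 16 alternatives.

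For Pol I, the windows held DMSO peaks about in proportion to their length, and BMH-21 peaks at a share close in value to that of Pol II but with a wide interval. The share was 30.4% for Pol I after BMH-21 (interval 19.9 to 42.7) and 22.4% for Pol I in DMSO (interval 20.1 to 24.9), and both intervals include the share of the length. The BMH-21 Pol I share rests on 21 peaks. It was 1.35 times the share of the length (interval 0.886 to 1.90), and its interval lay above 1 in 2 of 16 alternatives, with peaks under 10 kb apart merged (1.73, interval 1.15 to 2.36) and by running number (1.37, interval 1.14 to 1.63). The value by running number is weak. It rests on 89 numbers placed in the windows and 199 in the rest, and its interval leaves out 205 that could not be placed. DMSO Pol I density was 21.5 peaks per Mb in the windows and 21.6 in the rest of the chromosome.

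**Figure D1:**
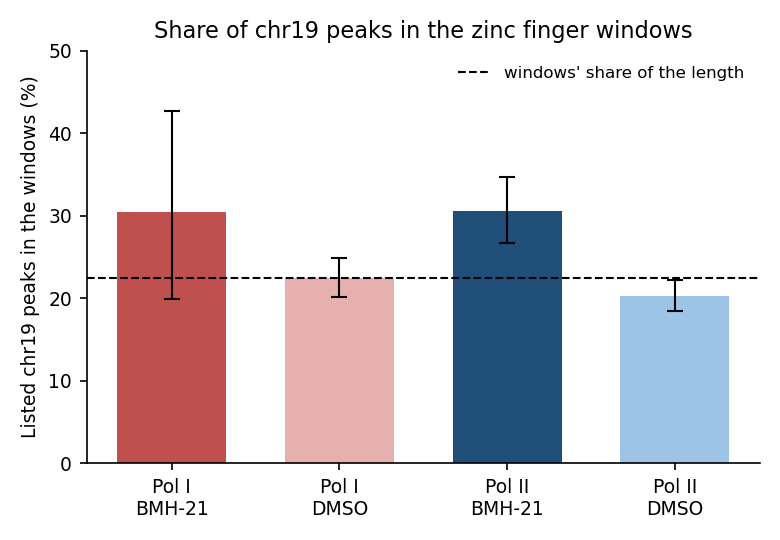
Share of the listed chromosome 19 peaks that lay in the zinc finger windows (vertical axis, percent) in each of the 4 libraries, with exact 95% intervals over peaks as error bars and the windows' 22.5% share of the length as a dashed line. BMH-21 Pol II, at 30.6%, lies above the line and DMSO Pol II, at 20.3%, just below it, while both Pol I intervals include it.

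Put the other way round, BMH-21 peaks made up 31.9% (interval 27.9 to 36.1) of the 514 Pol II peaks listed in the windows and 21.3% (interval 19.4 to 23.3) of the 1747 in the rest of the chromosome. For Pol I they made up 7.24% (interval 4.54 to 10.9) of 290 peaks in the windows and 4.90% (interval 3.64 to 6.45) of 979 in the rest, with overlapping intervals. The Pol II difference rested in part on window 4. Without that window the BMH-21 share of Pol II peaks was 27.4% (interval 23.1 to 32.1) in the other windows, which overlaps that of the rest, and the BMH-21 Pol II share over the share of the length was 1.13 (interval 0.948 to 1.33). With peaks under 10 kb apart merged into units, the BMH-21 Pol II share over the share of the length was 1.19 (interval 0.991 to 1.41), and the BMH-21 share of Pol II units was 37.0% (interval 31.1 to 43.2) in the windows and 30.9% (interval 27.8 to 34.2) in the rest, again overlapping. The Pol II difference was not seen by running number either, which counts skipped peaks too. By that count BMH-21 made up 45.9% (interval 43.0 to 48.8) of the Pol II numbers in the windows and 46.4% (interval 44.9 to 47.9) in the rest.

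The windows differed among themselves. Window 4 had the highest BMH-21 Pol II density, with 55 peaks or 32.4 per Mb, close to its 61 DMSO Pol II peaks or 35.9 per Mb. BMH-21 peaks there made up 47.4% (interval 38.1 to 56.9) of the listed Pol II peaks. The share was 22.0% of 41 peaks in window 1, 30.6% of 36 in window 2, 32.3% of 99 in window 3, 26.2% of 65 in window 6 and 24.2% of 149 in window 7. In window 5 it was 4 peaks of 8. All 7 values lie above the 21.3% of the rest of the chromosome, but in windows 1, 2, 5, 6 and 7 the interval of the single window includes that value.

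In DMSO, windows 1 and 7 were the densest in Pol II, with 45.7 and 49.1 peaks per Mb. Window 5 was the poorest, with 4 peaks or 5.71 per Mb, and window 3 had 67 peaks over its 4.50 Mb, or 14.9 per Mb. The balance of the polymerases differed too. Pol I made up 7 of 39 DMSO peaks in window 1 (17.9%, interval 7.54 to 33.5) and 16 of 20 in window 5 (80.0%, interval 56.3 to 94.3), against 43.5% over all windows and 40.4% in the rest of the chromosome. Among the 8 stretches outside the windows, DMSO Pol II density ran between 17.5 and 78.0 peaks per Mb with a median of 30.8, against a median of 28.2 over the 7 windows. The 78.0 belongs to the last stretch, of only 0.218 Mb with 17 peaks, and the next highest was 53.6 per Mb over 9.14 Mb. DMSO Pol I density had a median of 23.4 per Mb over those stretches and 22.9 over the windows.

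**Figure D2:**
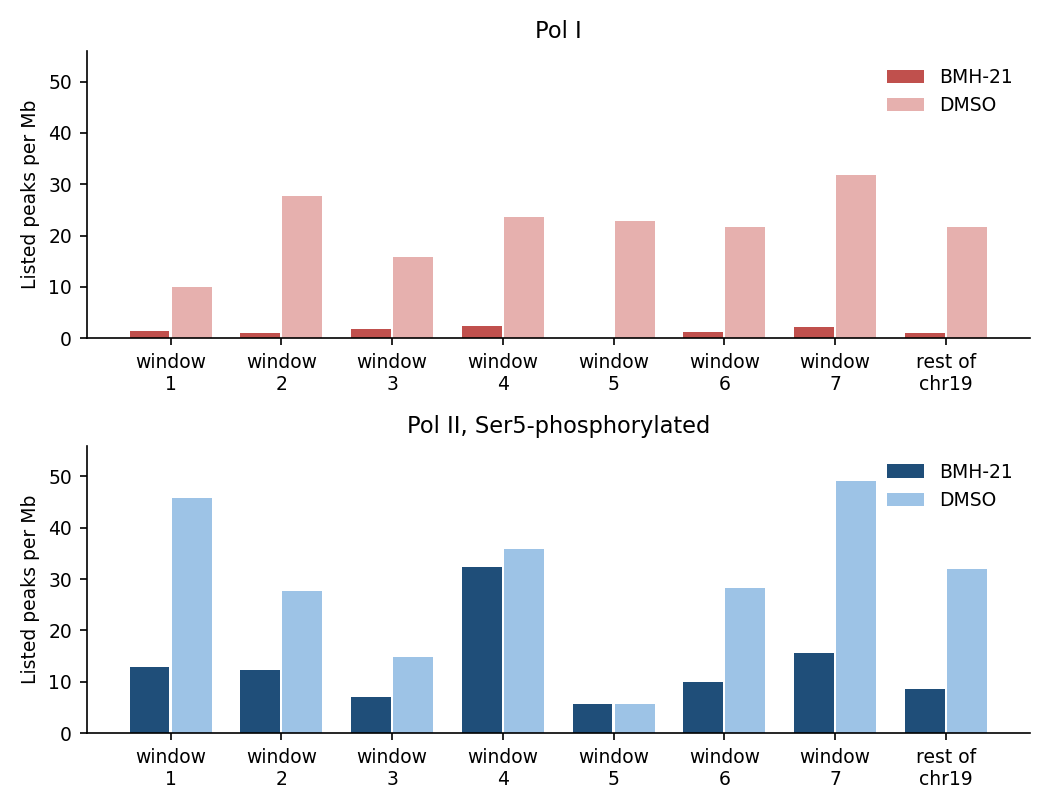
Listed peaks per Mb (vertical axis) in each window and in the rest of chromosome 19, with BMH-21 and DMSO libraries side by side for Pol I (top) and Pol II (bottom); there is 1 library per bar. Window 4 has nearly as many BMH-21 as DMSO Pol II peaks, 32.4 and 35.9 per Mb, whereas in the rest of the chromosome the densities are 8.64 and 31.9 per Mb.

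Much of the BMH-21 Pol II signal of window 4 lay in a single dense run. A dense run was taken as at least 10 listed peaks with no gap over 10 kb. The run covers chr19:36761656-36805519 (43.9 kb) and has 24 BMH-21 Pol II peaks, with 23.2% of its length under peaks, a median width of 386 bp and a median score of 88.27. Its leading peaks are chr19:36768700-36769526 (827 bp, score 196.81), chr19:36778784-36779444 (661 bp, score 179.53), chr19:36765323-36765767 (445 bp, score 168.63) and chr19:36780305-36781043 (739 bp, score 155.6). These are 4 of the 5 highest-scored BMH-21 Pol II peaks of all windows, and the fifth, chr19:37761579-37762265 (score 176.73), is in window 4 as well.

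Inside the run, 9 BMH-21 Pol II numbers were skipped and 7 DMSO Pol II peaks were listed between the BMH-21 peaks, the highest at chr19:36799972-36800581 with a score of 131.86. All but 1 of the BMH-21 peaks ended by position 36797666, whereas 3 of the 7 DMSO peaks lay after it. The listed BMH-21 peaks on either side of this gap are numbered 24001 and 24005, so skipped BMH-21 numbers fall between them. Beyond the end of the run, 4 more DMSO Pol II peaks followed, among them chr19:36808031-36809082 with a score of 188.49. BMH-21 Pol II peaks followed as well, from chr19:36815846-36816126 to chr19:36833478-36833746. They brought that list to 28 peaks in the 36.75-36.85 Mb stretch. No Pol I peak of either treatment was listed in the run, and the nearest in the 36.75-36.85 Mb stretch was the DMSO peak chr19:36822209-36823021 (score 145.81). The rest of the chromosome outside the windows had 1 BMH-21 Pol II run, of 12 peaks. Leaving the runs out, the BMH-21 Pol II share over the share of the length was 1.24 (interval 1.07 to 1.43).

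**Figure D3:**
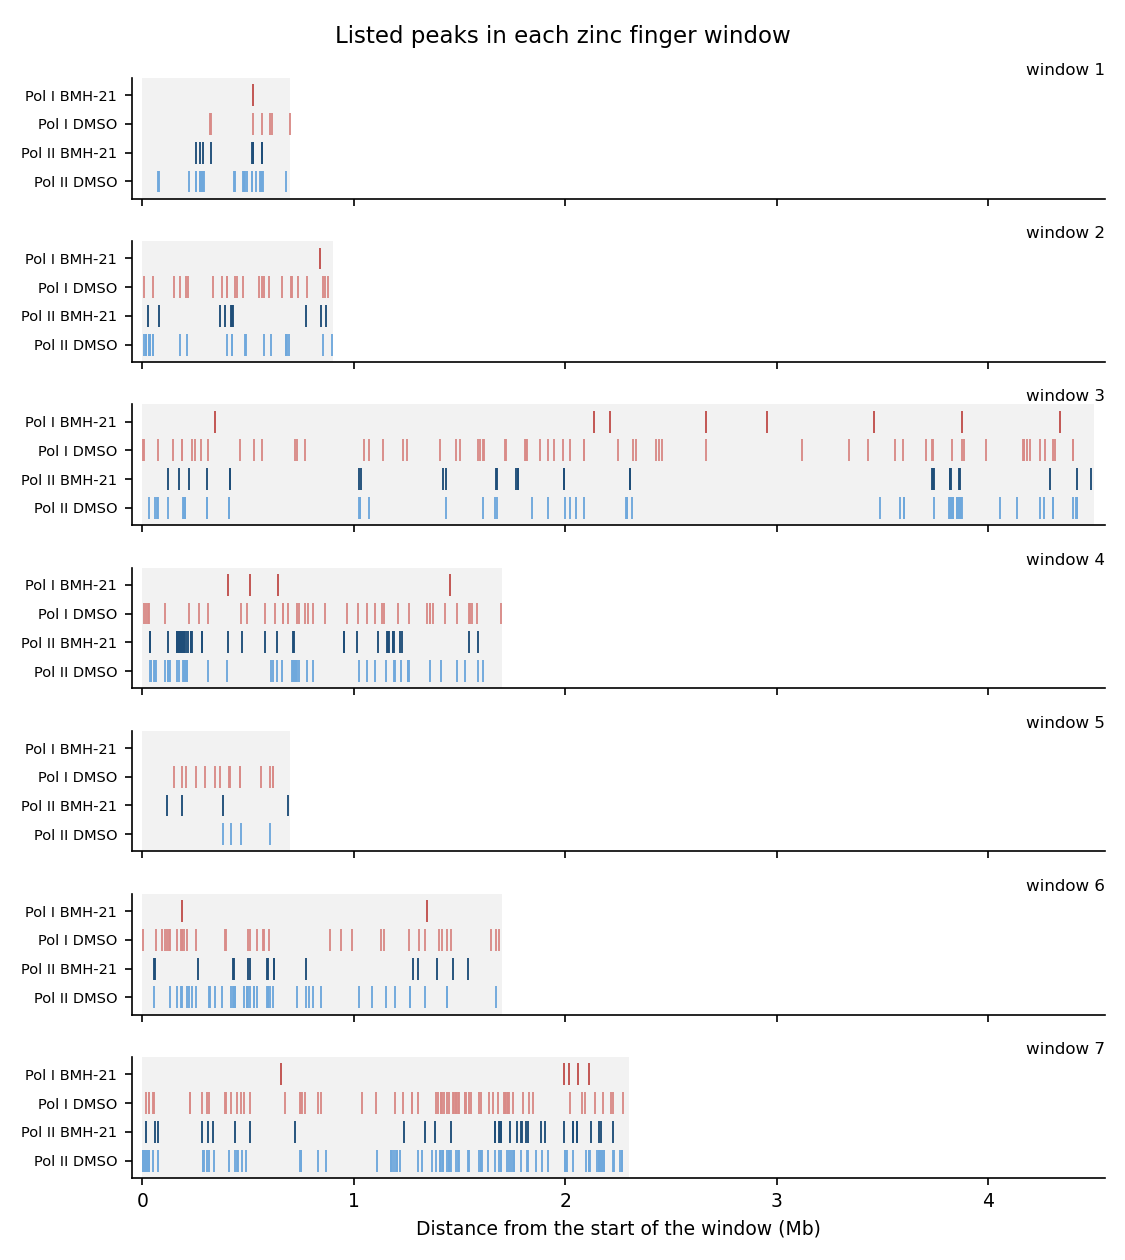
Position of every listed member, as the distance of the peak midpoint from the start of its window (horizontal axis, Mb), with a row of ticks for each library and the extent of each window in grey. The run of 24 BMH-21 Pol II peaks stands out near the start of window 4. In window 3 a 1.17 Mb stretch lacks listed Pol II peaks and holds 9 of the window's 71 DMSO Pol I peaks.

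In DMSO, 5 Pol II runs lay in the windows with 59 peaks, which is 16.9% of the DMSO Pol II members, and the rest of the chromosome had 16 runs with 202 peaks (14.7%). The runs of the windows were chr19:9471438-9492372 in window 1 (10 peaks), chr19:23550493-23576068 in window 3 (11 peaks), chr19:37308393-37342208 in window 4 (13 peaks), and chr19:56603163-56630924 (15 peaks) and chr19:58751419-58784963 (10 peaks) in window 7. Each of them held between 1 and 2 listed BMH-21 Pol II peaks. Neither Pol I list had a run in the windows.

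The peak with the highest DMSO Pol II score of the whole chromosome was in window 3, at chr19:23510022-23514845. It was 4824 bp wide with a score of 1231.6, and the next member by width was 1848 bp. No Pol I peak overlapped it, and the nearest listed BMH-21 Pol II peak, chr19:23517562-23517863, was 2716 bp away with a score of 63.45. Within 23.5-23.6 Mb, 18 DMSO Pol II peaks were listed, 11 of them in the run named above, together with 5 BMH-21 Pol II peaks with scores between 53.91 and 69.61. The same stretch held 3 DMSO Pol I peaks, the highest at chr19:23586267-23586843 (score 324.13). It also held the second-highest BMH-21 Pol I member, chr19:23577199-23577551, 353 bp wide with a score of 100.59.

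Other leading DMSO Pol II members were chr19:57349095-57350396 in window 7 (score 605.48), chr19:19773392-19775239 in window 3 (score 582.82), and chr19:36908972-36909959 (score 531.75) and chr19:38084968-38085998 (score 514.05) in window 4. A Pol I peak of the DMSO list overlapped all 4. In window 6 the highest was chr19:52828294-52829902 (score 405.88), in window 2 chr19:12098302-12098813 (score 209.13), in window 1 chr19:9767959-9768824 (score 161.66) and in window 5 chr19:44716540-44717033 (score 86.92).

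The leading DMSO Pol I members were chr19:19886969-19887721 in window 3 (score 505.07), chr19:37328711-37329838 (score 500.96), chr19:37959870-37960606 (score 460.02) and chr19:37288166-37288980 (score 459.02) in window 4, and chr19:58131754-58132695 in window 7 (score 458.65). The peak at chr19:37959870-37960606 was the only one of these 5 under a DMSO Pol II peak. The widest DMSO Pol I member, chr19:12175296-12176675 in window 2, was 1380 bp with a score of 405.07. The highest were chr19:52430053-52430908 (score 427.6) in window 6, chr19:44555656-44556307 (score 322.85) in window 5 and chr19:9523834-9524380 (score 165.94) in window 1. Window 4 had the highest median score of DMSO Pol I members, 173.9 over 40 peaks, against 113.31 over all windows.

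Only 21 Pol I members were listed after BMH-21. Their median width was 209 bp and their median score 54.5, against 207.5 bp and 63.045 for the same list in the rest of the chromosome. Of these members 2 scored at least 100, chr19:12541483-12541896 in window 2 (414 bp, score 114.87) and the peak in window 3 given above. The next were chr19:22362656-22362884 (score 76.35) and chr19:21909722-21909986 (score 63.62) in window 3, and chr19:38056494-38056781 in window 4 (score 67.4). Window 3 had 8 of the 21, window 7 had 5, window 4 had 4, window 6 had 2, windows 1 and 2 had 1 each, and window 5 had none among 16 listed Pol I peaks, which allows a BMH-21 share of up to 18.8% by a floor of 3 counts, or 20.6% by the exact interval.

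In the middle of window 3, a stretch picked for its lack of listed Pol II peaks still held some Pol I peaks. The longest stretch of any window free of Pol II peaks in both lists was chr19:22016743-23185672, 1.17 Mb long. It held 3 BMH-21 Pol I peaks and 9 DMSO Pol I peaks. In the other windows the longest such stretch was between 0.142 and 0.239 Mb and held between 0 and 5 DMSO Pol I peaks and no BMH-21 Pol I peak. DMSO Pol I was itself sparser in the 1.17 Mb stretch than over window 3 as a whole, which had 71 such peaks (15.8 per Mb). For BMH-21 Pol I, the 3 peaks of the stretch are too few to compare with the 8 in window 3 as a whole (1.78 per Mb). Part of the 1.17 Mb stretch, chr19:22363688-22654160 (290 kb), had no peak in any of the 4 lists.

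The running numbers of the BMH-21 Pol II list were kept more often in the windows. Of the numbers that could be placed there, 164 of 544 were listed (30.1%, interval 26.3 to 34.2), against 372 of 1992 in the rest of the chromosome (18.7%, interval 17.0 to 20.5). A skipped number was placed when the listed peaks on both sides lay in the same stretch, and 95 BMH-21 Pol II numbers could not be placed. If all of these were in the windows, the listed share there was 25.7% (interval 22.3 to 29.2), and without window 4 it was 25.9% (interval 21.8 to 30.4). In window 4 itself 55 of 123 numbers were listed (44.7%, interval 35.7 to 53.9).

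The DMSO lists went the other way in value. For DMSO Pol II, 54.5% of 642 numbers were listed in the windows (interval 50.6 to 58.4), against 59.8% of 2301 in the rest (interval 57.7 to 61.8), with intervals that overlap. For DMSO Pol I, 71.2% of 378 were listed in the windows (interval 66.3 to 75.7), against 78.4% of 1188 in the rest (interval 75.9 to 80.7). The intervals of DMSO Pol I are barely apart, and without window 4 they overlap, with 72.0% in the windows (interval 66.7 to 76.9). They also overlap without window 1, 2 or 7, with the windows narrowed by 0.1 Mb on each side, or with the unplaced numbers given to the rest, so this difference is not stable. For BMH-21 Pol I, 21 of 89 numbers were listed in the windows (23.6%, interval 15.2 to 33.8) and 48 of 199 in the rest (24.1%, interval 18.4 to 30.7), but 205 numbers could not be placed, so this comparison is weak. By all numbers that could be placed, BMH-21 Pol II stood at 0.847 of DMSO Pol II in the windows and at 0.866 in the rest of the chromosome.

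**Figure D4:**
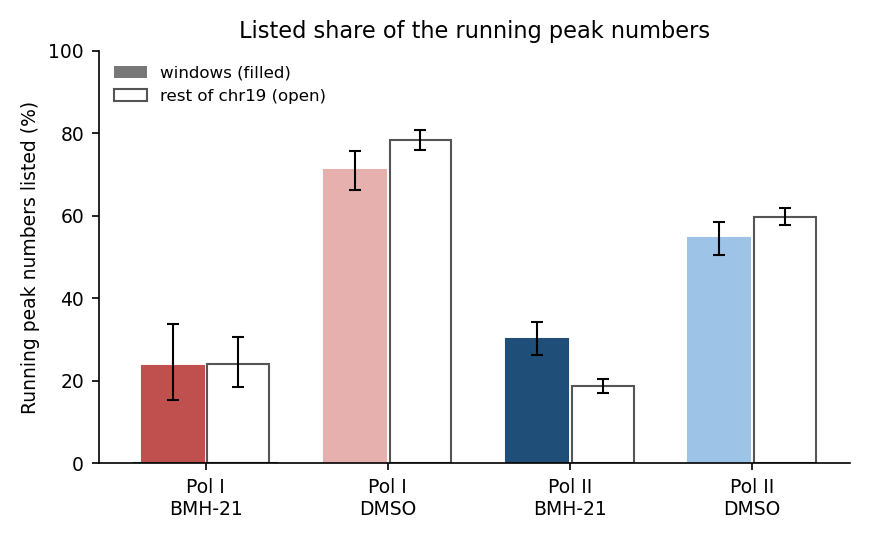
Share of running peak numbers that are listed (vertical axis, percent) in the windows (filled) and in the rest of chromosome 19 (open) for each library, with exact 95% intervals over numbers as error bars. The BMH-21 Pol II bars are 30.1% in the windows and 18.7% in the rest, whereas both DMSO pairs are lower in the windows.

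BMH-21 Pol II peaks of the windows had a somewhat larger median width than those elsewhere on the chromosome, and more of them scored high. Their median width was 268.5 bp (interval of the median 253 to 281), against 244.5 bp (interval 242 to 248) in the rest. These intervals overlapped in 4 of 12 alternatives, among them without window 3 (263.5 bp, interval 246 to 278). Scores of at least 100 were held by 19 of 164 (11.6%, interval 7.12 to 17.5) in the windows and 15 of 372 (4.03%, interval 2.27 to 6.56) in the rest. Widths of at least 300 bp were held by 59 (36%, interval 28.6 to 43.8) in the windows and 57 (15.3%, interval 11.8 to 19.4) in the rest. The run accounted for 9 of those 19 and 16 of those 59. In the windows other than window 4, the median width was 250 bp (interval 240 to 268, overlapping that of the rest), 6 of 109 peaks (5.50%, interval 2.05 to 11.6) scored at least 100 and 28 (25.7%, interval 17.8 to 34.9) were at least 300 bp wide. On all other chromosomes the BMH-21 Pol II median was 270 bp and 13.8% scored at least 100. The 7 windows together stood nearer to these values than the rest of chromosome 19 did. The windows other than window 4 stood nearer to the rest of chromosome 19 in both measures.

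The remaining lists differed little in median width. Median widths in the windows and in the rest were 209 and 207.5 bp for BMH-21 Pol I, 519 and 477 bp for DMSO Pol I, and 506.5 and 485 bp for DMSO Pol II, each with overlapping intervals. Widths of at least 300 bp were held by 256 of 269 DMSO Pol I peaks in the windows (95.2%) and 837 of 931 in the rest (89.9%). For DMSO Pol II these shares were 96% and 94.5%, and for BMH-21 Pol I 14.3% and 10.4%. Median scores in the windows and in the rest were 54.5 and 63.045 for BMH-21 Pol I, 113.31 and 110.34 for DMSO Pol I, 60.63 and 57.505 for BMH-21 Pol II and 80.595 and 85.04 for DMSO Pol II. The peaks covered 0.400% of the windows' length and 0.227% of the rest for BMH-21 Pol II, with mean widths of 305 and 263 bp. For DMSO Pol II they covered 1.62% and 1.85%, for BMH-21 Pol I 0.0409% and 0.0264%, and for DMSO Pol I 1.20% and 1.15%.

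**Figure D5:**
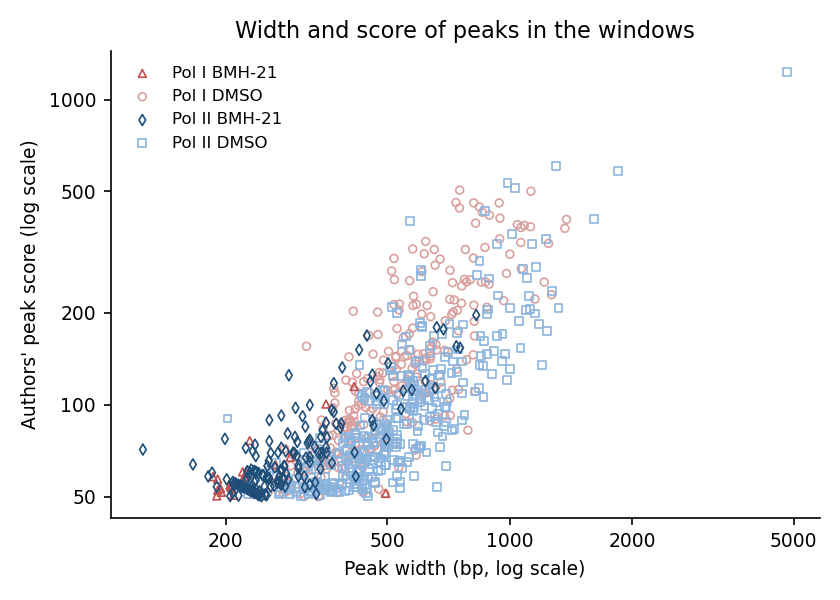
Width (horizontal axis, bp, log scale) against the authors' score (vertical axis, log scale) for each of the 804 members, with a symbol per library. BMH-21 members sit mostly at the narrow, low-scored end, and a DMSO Pol II peak of 4824 bp with a score of 1231.6 stands apart at the upper right; scores of different lists may be on different scales.

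Pol I and Pol II coincided in the windows about as often as elsewhere on the chromosome. In DMSO, 44 of 269 Pol I members (16.4%, interval 12.1 to 21.3) shared at least 1 bp with a Pol II peak, against 18.9% (interval 16.4 to 21.6) in the rest of chromosome 19 and 14% of the list over all chromosomes. In reverse, 45 of 350 Pol II members (12.9%, interval 9.53 to 16.8) shared a base with a Pol I peak, against 12.7% (interval 11 to 14.6) in the rest of the chromosome. Over all chromosomes that share was 20.5%, so it was lower on chromosome 19 in and out of the windows alike. The 45 overlapping pairs had a median width of 503 bp for Pol I and 569 bp for Pol II, with a median of 446 bp in common. Pol II members with a score at or above their median of 80.595 were overlapped in 33 of 175 cases (18.9%, interval 13.4 to 25.5) and those below it in 12 of 175 (6.86%, interval 3.59 to 11.7). For Pol I members the corresponding shares were 17.0% of 135 and 15.7% of 134. The rest of the chromosome, split at its own median scores, gave 18.3% of 688 and 7.13% of 687 for Pol II. For Pol I it gave 21.2% of 466 and 16.6% of 465. The Pol II contrast by score was thus not particular to the windows.

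The 3 pairs with the largest sum of both scores, a rank that adds values of separate lists and is used here only to pick examples, were the Pol II peak chr19:19773392-19775239 with the Pol I peak chr19:19774154-19775022 (score 327.97) in window 3, and, in window 4, chr19:38084968-38085998 with chr19:38085010-38085833 (score 393.89) and chr19:37959818-37960687 (score 432.6) with chr19:37959870-37960606. In each of these 3 the Pol I peak lay wholly within the Pol II peak. After BMH-21 there was a single pair in the windows, chr19:9721561-9721766 for Pol I (score 54.32) and chr19:9721565-9721799 for Pol II (score 51.63) in window 1. This is 1 of 21 Pol I members (4.76%), against 2 of 48 (4.17%) in the rest of the chromosome and 9.52% of the list over all chromosomes. It is 1 of 164 Pol II members (0.610%), against 2 of 372 (0.538%) in the rest and 1.61% over all chromosomes.

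The BMH-21 and DMSO lists of an antibody shared no base in the windows or in the rest of the chromosome, but their Pol II peaks often lay side by side. How the authors chose the listed peaks is not known, and whether that choice left out peaks shared between treatments was not tested. The overlap between treatments over all chromosomes is not given here, so the lack of shared bases cannot be read as a trait of chromosome 19. A DMSO Pol II peak was within 1 kb of 54 of the 164 BMH-21 Pol II members (32.9%, interval 25.8 to 40.7), against 30.9% (interval 26.3 to 35.9) in the rest of the chromosome and 19.2% of the list over all chromosomes. A BMH-21 Pol II peak was within 1 kb of 51 of 350 DMSO Pol II members (14.6%, interval 11 to 18.7), against 9.45% (interval 7.96 to 11.1) in the rest of the chromosome, and 8.75% over all chromosomes. The intervals of the windows and the rest just overlap, and they came apart in 5 of 13 alternatives, among them those without window 2 (15.4%, lower bound 11.6) and without window 5 (14.7%, lower bound 11.2). For Pol I, 4 of 21 BMH-21 members had such a neighbour (interval 5.45 to 41.9%), against 27.1% (interval 15.3 to 41.8) in the rest of the chromosome and 12.6% over all chromosomes. Among DMSO Pol I members it was 5 of 269 (1.86%, interval 0.606 to 4.28), against 1.40% (interval 0.746 to 2.38) in the rest and 0.578% over all chromosomes. By window, 7 of 9 BMH-21 Pol II members of window 1 and 16 of 36 of window 7 had such a neighbour, and 1 of 11 in window 2 did. The highest-scored BMH-21 Pol II member of window 6, chr19:52896246-52896567 (score 99.86), was 36 bp from a DMSO Pol II peak. In window 3 the highest, chr19:24183926-24184211 (score 124.99), was 60880 bp from any.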

How the data were processed

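ChIP libraries of LNCaP cells were grouped by the titles of the samples. The authors' deposited files were 4 peak lists, 1 per library, giving position, a numbered peak name and a value headed as a p-value. That value runs from 50 upward on an unstated scale, so it is used as the authors' deposited score. Per the submitters' processing notes the build was hg19 and the tools named are Bowtie2 2.2.1, deepTools 3.5.4 and CASAVA 1.8.2. Peak names begin with MACS. Its version, its settings and its use of inputs were not given in the sources used here.

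Starts were converted to count from 1. A member had its midpoint in a window. Overlap meant 1 bp or more in common, and neighbours had at most 1 kb between them. The intervals of medians are order-statistic intervals. Regions were named by a rule: the 5 highest scores and the widest member per list, the highest per window and list, those nearest to a window edge, and every dense run. The peaks of the stretches at 23.5-23.6 Mb and 36.75-36.85 Mb, the pairs named (those with the largest sum of both scores) and the stretches free of Pol II were chosen after their values were seen. The windows, the definition of dense runs and the comparisons were chosen with earlier results of these data known. No hg19 sequence was at hand and none is printed. Alternatives changed the windows, the filters on score and width, the overlap and neighbour distances and the run definition, left out each window in turn, and used running numbers. The counting was tested on simulated data. Python 3.11.15, NumPy 2.4.6, pandas 2.3.3, SciPy 1.17.1 and matplotlib 3.10.9 were used.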

Additional observations from a re-analysis of the deposited data

Results flagged for a closer look

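The shares of listed chromosome 19 Pol II peaks in the windows lay on opposite sides of the windows' share of the length, above it for BMH-21 and below it for DMSO. They differed by 10.3 percentage points, 30.6% for BMH-21 and 20.3% for DMSO. With 1 library per treatment, the difference was not tested. The contrast depends on what is counted. By running numbers the values were 0.954 times the share of the length for BMH-21 (interval 0.883 to 1.03) and 0.970 times for DMSO (interval 0.904 to 1.04). Both intervals include 1. Without window 3 they were 1.67 times for BMH-21 (interval 1.43 to 1.93) and 1.09 times for DMSO (interval 0.976 to 1.21). The DMSO interval included the share of the length in 8 of 16 alternatives.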

How the results depend on the processing

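The alternatives with running numbers, with unplaced numbers reassigned and without dense runs were added after seeing the data. Of 458 alternative values over 34 results, 395 stayed within the interval of the main value or within 1.5 times a count or covered length. Another 60 moved beyond that, and 3 fell on the other side of their comparison value. Counting any overlap with a window left every value unchanged, so that setting could not move a result. A value within the interval can still lose its separation. The DMSO Pol II share over the length stayed within it in 14 of 16 alternatives, but stayed separated in 8. No paired analysis was possible because each group had 1 library.

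By running numbers, the BMH-21 Pol II share over the share of the length became 0.954, and the BMH-21 share of peaks 45.9% for Pol II and 19.1% for Pol I. The Pol I value leaves out 205 BMH-21 numbers that could not be placed. Without window 3, the share over the length became 1.09 for DMSO Pol II, 1.67 for BMH-21 Pol II and 1.12 for DMSO Pol I. Without window 4, BMH-21 Pol II gave 1.13 over the length, 27.4% of listed peaks, 25.9% of numbers, a median width of 250 bp, a median score of 58.26 and 0 runs. Without window 7, DMSO Pol II gave 0.768 over the length and 3 runs. Without window 1, overlap with the other antibody was 0% in both BMH-21 lists.

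At a score of 100 or more, BMH-21 Pol II gave 2.48 over the length, and the BMH-21 share was 1.27% for Pol I and 12.8% for Pol II. Overlap was 0% for both BMH-21 lists and 10.9% for DMSO Pol I. Neighbours were 0% for both Pol I lists, 10.5% for BMH-21 Pol II and 1.55% for DMSO Pol II. In the order BMH-21 Pol I, DMSO Pol I, BMH-21 Pol II, DMSO Pol II, median widths were 383.5, 621, 502 and 678 bp and median scores 107.73, 168.52, 125.54 and 138.18. Covered length was 0.00614% for BMH-21 Pol I, 0.0828% for BMH-21 Pol II and 0.817% for DMSO Pol II, and Pol II runs numbered 0 in both lists. These median scores are raised by the threshold itself.

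At 300 bp or more, BMH-21 Pol II gave 2.26 over the length, and the BMH-21 share was 1.16% for Pol I and 14.9% for Pol II. Overlap of both BMH-21 lists and neighbours of both Pol I lists were 0%, and neighbours of DMSO Pol II 5.65%. Median width was 414 bp for BMH-21 Pol I and 365 bp for BMH-21 Pol II, median score 100.59 and 84.09, and covered length 0.0101% and 0.197%.

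With peaks under 10 kb apart merged, BMH-21 Pol I gave 1.73 over the length, with an interval above 1, DMSO Pol I gave 1.11, and the BMH-21 share of Pol II units was 37.0%, against 30.9% in the rest, with overlapping intervals. With the other antibody within 1 kb, overlap was 25.3% for DMSO Pol I and 19.7% for DMSO Pol II. Within 5 kb of the other treatment lay 64.0% of BMH-21 Pol II and 37.4% of DMSO Pol II members. DMSO Pol II runs numbered 2 with gaps up to 5 kb and 0 with at least 20 peaks. With unplaced numbers given to the windows, the listed share was 7.14% for BMH-21 Pol I and 25.7% for BMH-21 Pol II. Beyond what each alternative changes by construction, the cause was not tested. Under each alternative run for it, the BMH-21 Pol II list kept a higher share of its numbers in the windows than in the rest, with intervals apart. Lists without read counts limit all values here to what the authors listed.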
